A study of Mus musculus with 24 samples.

Results

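The rule named 5 genes as factors of β cell dedifferentiation and of alternative islet cell fates, namely Aldh1a3, Sox9, Neurog3, Pax4 and Hhex. Of these 5 genes, 3 (Aldh1a3, Sox9 and Pax4) had a row among the 17696 genes used here. Neurog3 and Hhex had no row and were not analysed here, so no level is given for either. RNA-seq had been done on 24 libraries of MIN6 cells, a mouse insulinoma line that serves as a β cell model. The libraries fell into 6 groups of 4. Every group was a stable line made with a lentivirus and grown from a single clone. Scr carried a scrambled sequence, ZIP an antisense sequence that inhibits miR-146a-5p, and OE a construct that overexpresses miR-146a-5p. Scr+Cy, ZIP+Cy and OE+Cy were the same lines treated for 24 h with a mixture of IFNγ (100 ng/ml), TNFα (10 ng/ml) and IL-1β (5 ng/ml). Scr and ZIP shared 1 vector backbone with a green reporter, whereas OE was made in another backbone with a red reporter. A difference between lines therefore cannot be told apart from a difference between clones, nor, for OE, from the backbone. These libraries hold no measure of the mature miRNA, and no label could be checked against it. Nothing in the labels says that the 4 replicates of a group were separate cultures, and the p-values measure the spread between these libraries. The sample titles give same-numbered replicates of all 6 groups a shared prefix, whose meaning the labels do not state.

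In the developing pancreas, Neurog3 commits progenitors to the endocrine lineage, and Pax4 then favours the β and δ cell fates over the α cell fate. Hhex maintains δ cells, and Sox9 marks multipotent progenitors and, later, duct cells. Aldh1a3, an enzyme that makes retinoic acid, is low in mature β cells and is widely used as a marker of β cells that lose their identity in diabetes.

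The miRNA that the lines were built on is shown because its seed defines the site searched for in the members. The mature sequence (RefSeq, GRCm38.p6, chr11:43374435-43374456, minus strand) is given 5′ to 3′ with the seed, bases 2 to 8, in capitals.
miR-146a-5p: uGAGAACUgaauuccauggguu
The 7-letter match to the seed, AGTTCTC, and its 6-letter core, GTTCTC, were searched on the sense strand of 1 annotated 3′ UTR per member (GENCODE M21). This was the 3′ UTR of the longest protein-coding transcript with an annotated stop codon, which need not be the longest 3′ UTR of the gene. Neither was present in the UTR searched for any of the 5 members. The UTRs were 1799 bases long for Aldh1a3, 2250 for Sox9, 656 for Neurog3, 44 for Pax4 and 926 for Hhex. Of all 3′ UTRs within 20% of the same length, the 7-letter match was held by 13.3% for Aldh1a3, 17.2% for Sox9, 5.08% for Neurog3, 0.99% for Pax4 and 6.09% for Hhex. The absence says only that these letters are not in these windows.

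The library totals were between 26657792 and 37168232 reads (median 30701023), where a read is an estimated count rounded to a whole number. Levels are given as CPM, the counts of a gene scaled to a common library size. A gene with 3 or fewer reads in every library of a group is called at the detection limit there, and a fold against such a group is a bound set from 3 reads per library. A gene was called changed when its fold was at least 1.5 and its unadjusted p was below 0.05 in edgeR's quasi-likelihood test, the thresholds of the study. The Benjamini-Hochberg adjusted p over all 17696 genes is given beside each call. The β cell hormone transcript Ins2 was high in every group, with means from 9270 CPM in Scr+Cy to 18900 CPM in OE.

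Aldh1a3 was above the detection limit in the OE line alone. The gene lies at chr7:66390892-66427477 (GRCm38.p6). In OE, replicates 1 to 4 had 77, 70, 76 and 50 reads, and in OE+Cy 17, 12, 11 and 19 reads. Scr had 1 read in replicate 4 and 0 in the others, and ZIP, Scr+Cy and ZIP+Cy had 0 reads in every library. All 8 libraries of the OE line thus lay above the other 16, and the OE libraries lay above the OE+Cy libraries without overlap. Across all genes, 46.5% had no overlap between OE and Scr and 40.2% between OE+Cy and OE.

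The mean level of Aldh1a3 was 1.99 ± 0.293 CPM in OE and 0.48 ± 0.122 CPM in OE+Cy (SD, n = 4). It was at least 22.5-fold higher in OE than in Scr (edgeR adjusted p = 3.73e-08). Under cytokines it was at least 4.94-fold higher in OE+Cy than in Scr+Cy (edgeR adjusted p = 1.63e-06). Within the OE line the cytokines lowered it 4.12-fold, a log2 fold change of -2.04 with a standard error of 0.36 (edgeR adjusted p = 0.000286). ZIP and Scr, and ZIP+Cy and Scr+Cy, were at the detection limit in both groups, and no fold is given for them. In bulk RNA, fewer cells that express a gene and less RNA per cell cannot be told apart.

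Pax4 was read in all 24 libraries and was also highest in the OE line. It encodes a paired-homeobox repressor and lies at chr6:28442334-28449340. Scr had 23, 20, 21 and 23 reads in replicates 1 to 4, ZIP had 13, 7, 14 and 6, and OE had 90, 104, 182 and 199. With cytokines, Scr+Cy had 21, 22, 33 and 31 reads, ZIP+Cy had 12, 13, 18 and 25, and OE+Cy had 64, 78, 90 and 157. The OE and OE+Cy libraries lay above all others, and replicates 3 and 4 of OE were higher than replicates 1 and 2. Across all genes, 46.2% had no overlap between OE+Cy and Scr+Cy, and 51.7% between OE+Cy and Scr.

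The mean level of Pax4 was 0.641 ± 0.058 CPM in Scr, 0.342 ± 0.134 CPM in ZIP and 4.27 ± 1.83 CPM in OE (SD, n = 4). It was 6.63-fold higher in OE than in Scr, a log2 fold change of 2.73 with a standard error of 0.31 (edgeR adjusted p = 7.82e-08). With cytokines the mean was 3.12 ± 1.13 CPM in OE+Cy, 0.867 ± 0.212 CPM in Scr+Cy and 0.591 ± 0.188 CPM in ZIP+Cy. OE+Cy was 3.6-fold above Scr+Cy, a log2 fold change of 1.85 with a standard error of 0.3 (edgeR adjusted p = 1.63e-05). Ordered by mean, Pax4 ran OE, OE+Cy, Scr+Cy, Scr, ZIP+Cy and ZIP. Of these neighbours, OE+Cy and OE did not pass the test against each other, and neither did Scr+Cy and Scr, Scr and ZIP+Cy, or ZIP+Cy and ZIP.

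Pax4 was lower in ZIP than in Scr, with no overlap between the libraries, by a log2 fold change of -0.90 with a standard error of 0.37 (edgeR unadjusted p = 0.0238, adjusted p = 0.0746). With the replicate number as a block it was -0.91 (edgeR adjusted p = 0.0251), which also passed at the adjusted threshold. The values rest on few reads, and without the block the call depended on single libraries. Without ZIP replicate 2 the log2 fold change was -0.79 (edgeR adjusted p = 0.173) and without ZIP replicate 4 it was -0.71 (edgeR adjusted p = 0.201), and neither passed. Across all genes, 27.2% had no overlap between ZIP and Scr.

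**Figure D1:**
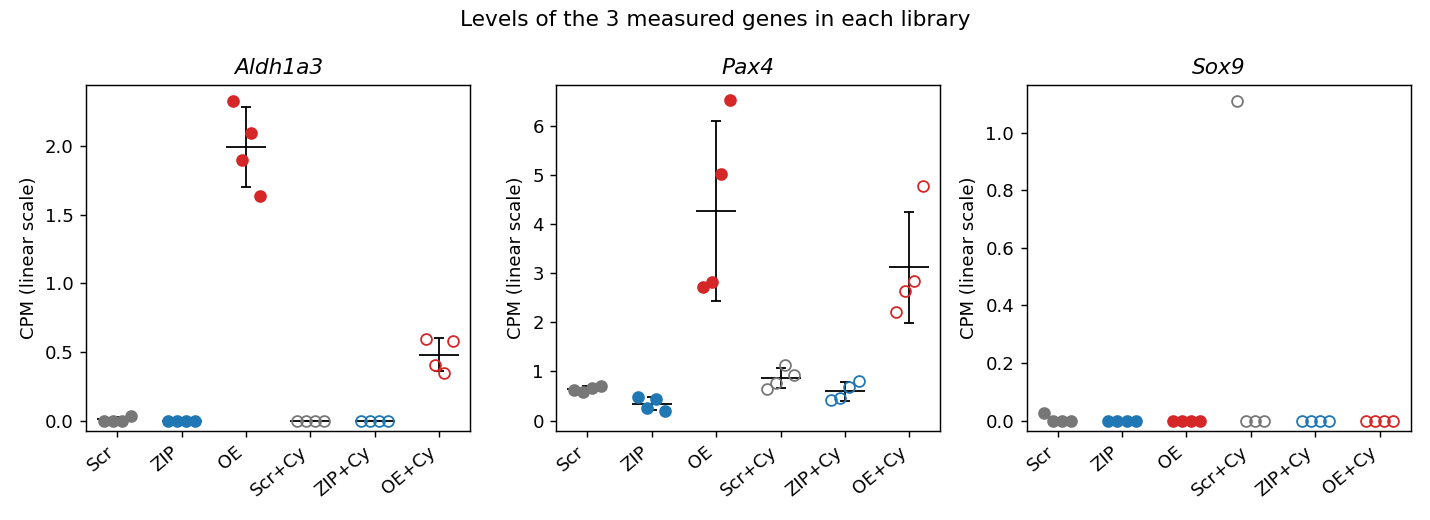
CPM of Aldh1a3, Pax4 and Sox9 (vertical axes, linear) in each of the 24 libraries by group; filled symbols are untreated, open symbols cytokine treated, and the horizontal line and bars of Aldh1a3 and Pax4 are the mean and SD of 4 libraries. Aldh1a3 sits at 1.64 to 2.33 CPM in OE and near 0 outside the OE line, Pax4 is highest in OE and OE+Cy, and Sox9 has 1 library at 1.11 CPM.

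The cytokine effect on Pax4 did not pass the test in any line. The log2 fold change was 0.43 in Scr (edgeR adjusted p = 0.425), 0.78 in ZIP (edgeR adjusted p = 0.138) and -0.45 in OE (edgeR adjusted p = 0.199). With the replicate number as a block, the value in ZIP was 0.76 (edgeR adjusted p = 0.0742) and passed at the unadjusted threshold. Leaving out 1 library also moved calls: in ZIP the value passed at 0.97 without ZIP replicate 1, 0.92 without ZIP replicate 3, 0.91 without ZIP+Cy replicate 1 and 0.89 without ZIP+Cy replicate 2. In OE it passed at -0.61 without OE replicate 1, -0.60 without OE replicate 2 and -0.74 without OE+Cy replicate 4. The cytokine effect in OE differed from that in Scr by -0.88 with a standard error of 0.43 on the log2 scale (edgeR adjusted p = 0.162), and that in ZIP from that in Scr by 0.35 (edgeR adjusted p = 0.971). Neither difference passed, where 20% of all genes passed for OE and 0.0565% for ZIP.

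**Figure D2:**
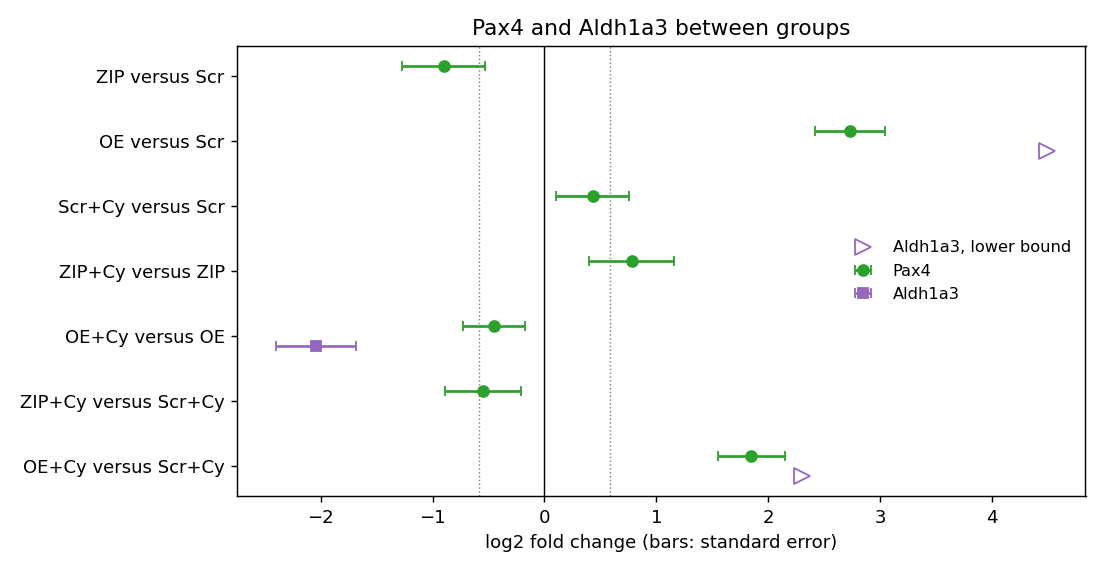
Log2 fold changes (horizontal axis) of Pax4 and Aldh1a3 in 7 comparisons; bars are standard errors, open triangles are lower bounds for Aldh1a3 where the other group was at the detection limit, and dotted lines mark a 1.5-fold change. Pax4 stands at 2.73 in OE against Scr and 1.85 in OE+Cy against Scr+Cy, and Aldh1a3 falls to -2.04 in OE+Cy against OE.

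Sox9 was read in 2 of the 24 libraries. It encodes an HMG-box factor and lies at chr11:112782210-112787757. Replicate 1 of Scr+Cy had 36 reads, or 1.11 CPM, replicate 1 of Scr had 1 read, and the other 22 libraries had 0. In the fit over all libraries it passed the thresholds in Scr+Cy against Scr (edgeR adjusted p = 0.121), in ZIP+Cy against Scr+Cy (edgeR adjusted p = 0.0678) and in OE+Cy against Scr+Cy (edgeR adjusted p = 0.0374). With the replicate block the adjusted p in ZIP+Cy against Scr+Cy was 0.03. The libraries overlapped in all 3 comparisons. Without Scr+Cy replicate 1 the edgeR adjusted p was 0.583 in the first of these and 1 in the others, and DESeq2 gave no p for Sox9. These calls therefore rest on 1 library and are not read as a change with cytokines.

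That library also stood apart in genes of other tissues. The 11 genes of a peripheral nerve list summed to 89.5 CPM in Scr+Cy replicate 1. In the other 3 libraries of the group they summed to 9.88 to 11.8 CPM. None of the 11 was at 0 in Scr+Cy replicate 1, nor in OE+Cy replicate 1, where the sum was 11.7 CPM. The 6 measured genes of the mesenchyme list summed to 57.3 CPM in Scr+Cy replicate 1. In the other 3 libraries of the group they summed to 0.571 to 3.27 CPM. The nerve list was also high in ZIP replicate 1, at 39.3 CPM, and in Scr replicate 1, at 27.3 CPM. So was the mesenchyme list, at 51.7 CPM in ZIP replicate 1 and 17.9 CPM in Scr replicate 1. In ZIP replicate 1 the Schwann cell factor Sox10 had 120 reads while Sox9 had 0. A cartilage list, taken because Sox9 drives chondrocytes, did not stand apart: its 8 genes summed to 89.1 CPM in Scr+Cy replicate 1 and to 82.1 to 92.5 CPM in the other 3. Most of that sum was Hapln1, with 76.5 CPM in that library, whereas Cnmd had 24 reads there and 0, 0 and 1 in the others. The part of these genes in the Sox9 value was not tested.

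**Figure D3:**
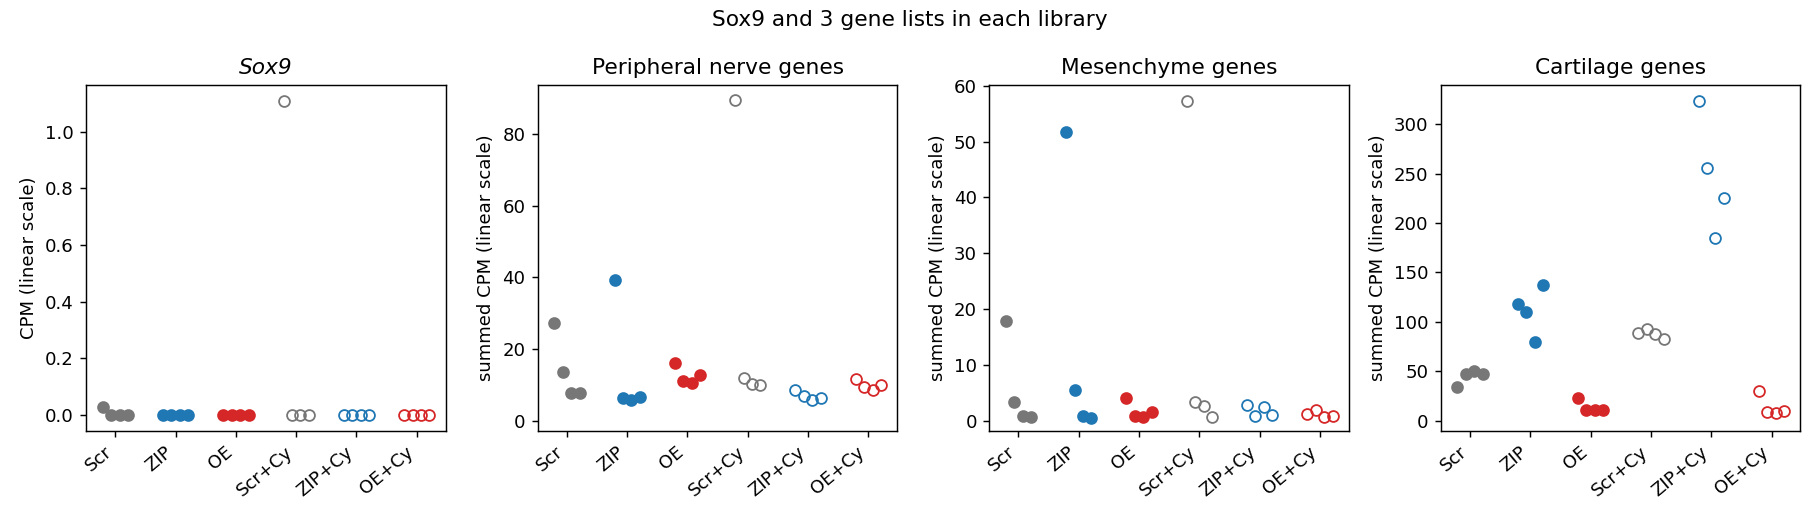
Sox9 (CPM) and the summed CPM of the peripheral nerve, mesenchyme and cartilage lists (vertical axes, linear) in each library, by group; filled symbols are untreated and open symbols cytokine treated. Scr+Cy replicate 1 is the highest library for Sox9 (1.11), nerve (89.5) and mesenchyme (57.3), but lies within its group for cartilage (89.1).

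Counted over the 3 measured members, 2 were called in OE against Scr, where 25.7% of all genes were called, and 1 in ZIP against Scr, where 14.9% were. With cytokines, 3 were called in OE+Cy against Scr+Cy (28.5% of all genes) and 1 in ZIP+Cy against Scr+Cy (15.8%), Sox9 included in each. The cytokine comparisons called 1 in Scr, which was Sox9 (10.6% of all genes), 0 in ZIP (12.5%) and 1 in OE, which was Aldh1a3 (21%). With 3 genes, such counts cannot be set apart from these backgrounds. Against untreated Scr, OE+Cy gave 2 calls (34.2% of all genes) and ZIP+Cy gave 0 (21.7%). Comparisons with the same control group share its libraries.

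Per kilobase of transcript, Pax4 stood at 3.12 CPM per kb in OE, above 40% of the 15529 genes compared, and at 0.468 in Scr, above 26.8%. Aldh1a3 stood at 0.578 CPM per kb in OE, above 28.6% of genes. Both were thus low transcripts even where they were highest.

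The genes whose log2 levels followed Aldh1a3 and Pax4 most closely over the 24 libraries were taken from 12670 genes, as a description. For Aldh1a3 these were Dkk2, a secreted Wnt pathway protein, at Pearson's r = 0.994, Rhobtb1 at 0.985 and Ppy, the pancreatic polypeptide hormone, at 0.98. Within the 8 OE libraries the same 3 genes gave 0.958, 0.935 and 0.869. For Pax4 they were Sf3b2 at 0.949, Scarf2 at 0.948 and Gm4791 at 0.944, which within the 8 OE libraries gave 0.46, 0.847 and 0.823. All points share the contrast between the OE line and the rest. By Spearman's rank, 1 of the 3 genes for Aldh1a3 and 0 of the 3 for Pax4 were again among the closest 3.

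The hormone and fate genes of α, δ and PP cells moved in both directions in OE. Of 11 measured, 6 were higher and 4 lower in OE than in Scr, where 11.3% of all genes were higher and 14.4% lower. The median log2 fold change was 1.98, against 0 over all genes. Ppy was 8.89 ± 2.15 CPM in OE and at 0 in all Scr libraries, at least 100-fold higher (edgeR adjusted p = 1.6e-09). Irx2, an Iroquois factor of α cells, was at least 32.3-fold higher, and Sst, the δ cell hormone, rose from 0.0828 to 1.34 CPM (log2 fold change 3.97). Gcg, the α cell hormone, fell from 288 to 41.4 CPM (log2 fold change -2.8). With cytokines, 6 of the 11 fell in OE+Cy against OE and 1 rose, with a median of -1.01, where 8.02% of all genes fell and 13% rose. Among those that fell were Sst at -2.16, Ttr, the thyroxine carrier transthyretin, at -2.11, and Ppy at -1.11.

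Progenitor and duct genes, the group to which Sox9 belongs by role, differed in both directions. Of 21 measured, 10 were higher in OE than in Scr, 3 were lower and 8 did not pass, where 11.3% of all genes were higher and 14.4% lower. The median log2 fold change was 0.64, or 0.88 with genes at the detection limit set to their bound. Epcam, an epithelial adhesion molecule, was 125 ± 5.51 CPM in OE and 0.127 ± 0.052 CPM in Scr (edgeR adjusted p = 1.04e-23). Krt19, a duct keratin, was 15.8 CPM in OE and at 0 in all Scr libraries, at least 179-fold higher. Car2, a carbonic anhydrase, fell from 2.56 to 0.295 CPM (log2 fold change -3.11), and Prox1, a homeobox factor of the developing pancreas, fell from 116 to 53.9 CPM (log2 fold change -1.11). Sox9 itself had 0 reads in every OE library. In OE+Cy against OE, 3 of these genes were higher, 1 was lower and 17 did not pass, and the 4 calls were a share near the 21% of all genes. The epithelial genes are also expressed outside the pancreas.

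Genes downstream of Neurog3 were mixed. Of 14 measured, 2 were higher and 4 lower in OE than in Scr (median -0.02), beside 11.3% and 14.4% of all genes. Rfx6, a factor needed for islet development, rose from 9.89 to 45.5 CPM in OE and to 25.6 CPM in ZIP (log2 fold changes 2.2 and 1.37). Isl1, an endocrine LIM factor, fell from 266 to 159 CPM in OE. In the Notch pathway, which restrains Neurog3 in progenitors, 2 of 17 genes were higher, a share near that of all genes, and 5 lower in OE than in Scr. Its ligand gene Dll1 fell from 12.9 to 2.55 CPM and rose to 41.6 CPM in OE+Cy (log2 fold change 4.02 against OE).

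Among retinoic acid genes other than Aldh1a3, 2 of 21 measured were higher and 2 lower in OE than in Scr, beside 11.3% and 14.4% of all genes. Of the higher ones, Dhrs9 was at the detection limit in both groups. Aldh1a1, another enzyme that makes retinoic acid, was at least 9.31-fold lower in OE. In OE+Cy against OE, 6 were higher and 2 lower, beside 13% and 8.02% of all genes, with Dhrs3, a retinaldehyde reductase, rising from 0.494 to 3.2 CPM. Among 13 other aldehyde dehydrogenases, 0 were higher and 5 lower in OE than in Scr (11.3% and 14.4% of all genes), Aldh2 falling from 13.7 to 4.21 CPM.

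β cell identity genes were mostly higher in OE, where Aldh1a3 was highest. Of 12 measured, 7 were higher and 2 lower than in Scr (median 1.18 on the log2 scale), beside 11.3% and 14.4% of all genes. Ucn3, a maturity marker of mouse β cells, rose from 0.197 to 19.6 CPM, and Slc30a8, the granule zinc transporter, rose from 21.9 to 382 CPM. Nkx6-1 fell from 254 to 167 CPM. In ZIP, where Aldh1a3 had 0 reads, 5 of the 12 were also higher than in Scr and 0 lower (median 0.52). Across all genes, 14.9% were called in ZIP against Scr. In OE+Cy against OE, where Aldh1a3 fell, 0 of the 12 rose and 9 fell, with a median of -0.79. Of all genes, 13% rose and 8.02% fell there. Of 18 genes usually kept low in β cells, 5 were higher and 7 lower in OE than in Scr (median -0.07), with Igfbp4 up from 4.5 to 93.3 CPM and Acot7 down from 11.7 to 0.878 CPM. Of 7 other Sox genes, 1 was higher and 3 lower in OE.

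**Figure D4:**
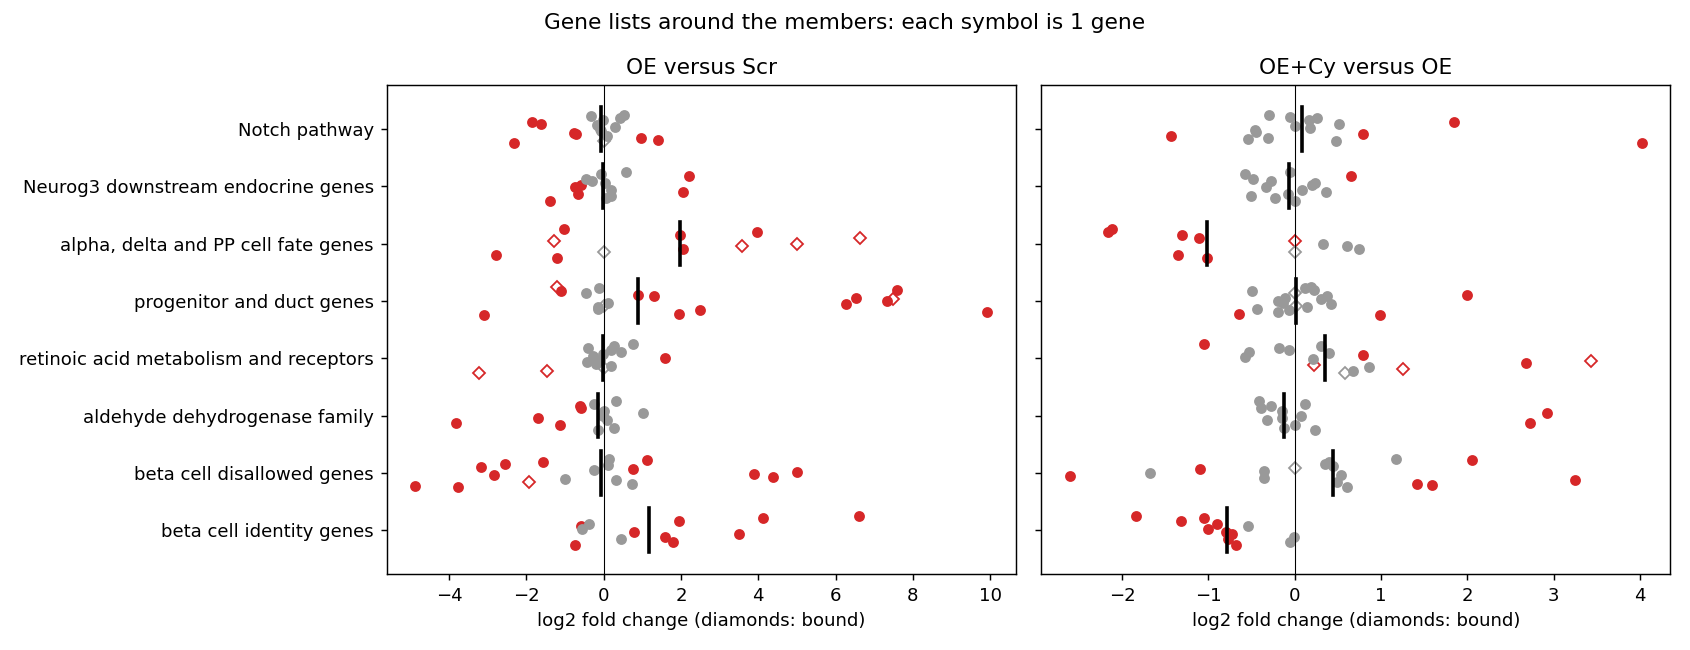
Log2 fold changes (horizontal axes) of the genes of 8 lists in OE against Scr and in OE+Cy against OE; each symbol is 1 gene, red where called, with diamonds for bounds and black lines for list medians, genes at the detection limit in both groups left out. In OE the β cell identity genes and the α, δ and PP cell genes have medians of 1.18 and 1.98, and in OE+Cy against OE of -0.79 and -1.01.

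Markers of other cells were low outside a few libraries. The mesenchyme list reached 57.3 CPM in Scr+Cy replicate 1, 51.7 CPM in ZIP replicate 1 and 17.9 CPM in Scr replicate 1. The 2 measured of 8 acinar genes summed to 5.62 to 7.21 CPM in OE, 1.26 to 2.78 CPM in OE+Cy and 0.619 to 0.875 CPM in Scr. Their sum thus moved with Aldh1a3 across these groups, though 1 of the 2 was called higher and 1 lower in OE than in Scr. The 3 measured of 5 endothelial genes summed to 1.05 to 1.72 CPM in OE, 1.76 to 4.66 CPM in OE+Cy and 0.0929 to 0.216 CPM in Scr, and 2 of the 3 were called higher in OE than in Scr. The 3 measured of 6 leukocyte genes summed to 1.96 to 4.49 CPM in OE, 1.52 to 3.83 CPM in OE+Cy and 1.25 to 1.83 CPM in Scr, and 1 of the 3 was called higher. Of the 3 leukocyte genes, 2 were at the detection limit in both OE and Scr. These 3 sums were thus higher in OE, where Aldh1a3 and Pax4 were highest, than in Scr. The 6 measured of 7 mesenchyme genes summed to 0.579 to 4.08 CPM in OE and 0.712 to 17.9 CPM in Scr. Of these mesenchyme genes, 0 were called higher and 1 lower in OE than in Scr. The part of these markers in the member values was not tested. Around Pax4, 16 genes within 1 Mb were measured, and 3 were higher and 3 lower in OE than in Scr. Its neighbour Fscn3 was higher by 2.32 on the log2 scale (edgeR adjusted p = 0.0257), and its other neighbour Snd1 was not called, at 0.49. Around Aldh1a3, 0 of 17 genes were higher and 4 were lower. Beside these neighbour and marker counts, 11.3% of all genes were higher and 14.4% lower in OE than in Scr.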

How the data were processed

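RNA-seq of 24 MIN6 libraries in 6 groups of 4 was analysed. The authors aligned reads to mm10 and deposited estimated counts per gene (30.3% of values not whole). The submitters' processing notes name FastQC, STAR 2.7.8a, Partek 11.0.24.0204 and DESeq2. The smallest total of a listed gene was 10. The second table the authors deposited held normalized counts, a signal equal to the counts over 1 factor per library (largest relative deviation 0.00917), and was used only for that check.

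Counts were rounded and fitted in edgeR 4.0.16 (R 4.3.3) with TMM scaling and quasi-likelihood F tests, in 1 model of 6 group means without a filter. Calls needed a fold of 1.5 and p below 0.05, and differences of cytokine response an adjusted p below 0.05. Log2 levels used a prior count of 2. Alternatives were DESeq2 1.42.0 as test and as size factors, the low-count filter (14535 genes, 2 of the 3 members), adjusted p, a replicate block, and leaving out libraries. The code was tested on simulated data. No pair of replicates was identical (highest correlation 0.9957).

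Members and lists were chosen with earlier results of these data known, and the peripheral nerve and cartilage lists after values were seen. Named from each list were at most the 2 largest rises and 2 largest falls called, among genes that reached 1 CPM on average in one of the groups. Aldh1a1, Dhrs9, Sst in OE against Scr, Ppy in OE+Cy against OE, and the single genes named beside Sox9 were picked after their values were seen. For Aldh1a3 and Pax4 the 3 closest genes by Pearson's r were named, and those of Sox9 are not reported here. Some list genes are not reported here by name. Same-numbered libraries deviated together (every correlation above 0.1) in ZIP against Scr (0.141 to 0.634) and in ZIP+Cy against Scr+Cy (0.191 to 0.37). They also did so in the cytokine comparisons of Scr (0.413 to 0.626), ZIP (0.261 to 0.397) and OE (0.162 to 0.455). Pairing entered only through the replicate block, an alternative, and the p-values of the main fit are unpaired. Positions are from RefSeq (GRCm38.p6). Depth was 26657792 to 37168232 reads, and bounds from 3 reads cover counting error only.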

Additional observations from a re-analysis of the deposited data

Results flagged for a closer look

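Sox9 in Scr+Cy was flagged because 1 of its 4 libraries stood far from the others. Replicate 1 had 1.11 CPM and the other 3 had 0, so the gap took the whole range (Dixon ratio 1). For 4 normally distributed values, chance alone flags about 1 in 20 groups. With 3 libraries at 0 and 1 above it, the ratio is 1 by construction, so that rate does not apply here.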

How the results depend on the processing

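Aldh1a3 and Pax4 kept direction and call in OE against Scr and in OE+Cy against Scr+Cy under every alternative run. The log2 fold change of Pax4 ranged from 2.45 to 2.89 in the first and from 1.58 to 2.00 in the second, and that of Aldh1a3 in OE+Cy against OE from -2.16 to -1.93, also always called. Requiring an adjusted p below 0.05 left 0 members in ZIP against Scr, Scr+Cy against Scr and ZIP+Cy against Scr+Cy. The low-count filter and the DESeq2 test each left 0 in Scr+Cy against Scr and 0 in ZIP+Cy against Scr+Cy. So did leaving out replicate 1 of Scr, Scr+Cy and ZIP together (chosen after seeing the data). The filter and the DESeq2 test also dropped Sox9 in OE+Cy against Scr+Cy, leaving 2 members called there. The replicate block gave 1 in ZIP+Cy against ZIP and changed no other count of members called; at the adjusted threshold it added Pax4 in ZIP against Scr (adjusted p = 0.0251) and Sox9 in ZIP+Cy against Scr+Cy (adjusted p = 0.03). Leaving out 1 library at a time gave 0 to 1 in ZIP against Scr, Scr+Cy against Scr, ZIP+Cy against ZIP and ZIP+Cy against Scr+Cy, and 1 to 2 in OE+Cy against OE. The Sox9 call in Scr+Cy against Scr was lost without any 1 of the 4 Scr libraries. Leaving out 1 library moved its log2 fold change between -1.495 (without Scr+Cy replicate 1) and 6.142 (without Scr replicate 1), and between -6.563 and 0 in ZIP+Cy and in OE+Cy against Scr+Cy, the 0 being without Scr+Cy replicate 1; without the 3 first replicates all of these were 0. Pax4 in ZIP+Cy against Scr ranged from -0.3073 to 0.0183, the latter without ZIP+Cy replicate 1. Over all genes, 10 differed in cytokine response between ZIP and Scr, 45 with the replicate block and 41 with DESeq2. The cause of these changes was not tested. Depth limits Sox9, and Aldh1a3 outside OE, to statements about 3 reads per library.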
